A study of Mus musculus with 12 samples.

Results

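Toll-like receptors were measured in CD11c-enriched lymph node cells of mice labelled APOE-KO, which lack apolipoprotein E, and of wildtype mice. The members are the 10 receptor genes Tlr1, Tlr2, Tlr4, Tlr6, Tlr7, Tlr8, Tlr9, Tlr11, Tlr12 and Tlr13, found by symbol among the 24499 genes of the count table, which holds 12 genes whose symbol is Tlr and a number. The remaining genes of that kind are not members. In the levels, sums, shares and counts below, receptors means the members alone. There were 6 libraries from APOE-KO mice and 6 from wildtype C57BL6 mice. Mice of both genotypes carried tumours of E0771-cOC cells, E0771 being a mammary carcinoma line of the mouse, and lymph nodes draining the tumour were collected on day 9. Cells were freed with collagenase and DNase and passed over beads against CD11c, an integrin of dendritic cells and some macrophages, so each library is a bead-enriched mixture and not a sorted cell type. The labels give no age and do not describe how the Apoe allele was made. Nor do they say whether the libraries of a group come from separate animals, so the spread behind each p-value may be technical rather than biological.

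Toll-like receptors are sensors of microbial molecules and of nucleic acids. TLR1, TLR2, TLR4 and TLR6 work at the cell surface, whereas TLR7, TLR8, TLR9, TLR11, TLR12 and TLR13 of the mouse work in endosomes, which they reach with the chaperone UNC93B1. All of them signal through the adaptor MYD88, and TLR4 uses the adaptor TRIF (Ticam1) as well. Dendritic cell types carry different sets: plasmacytoid dendritic cells are known for TLR7 and TLR9, and mouse conventional type 1 dendritic cells for TLR11.

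The libraries were read from the 3' end of polyadenylated RNA, so reads are expected near transcript ends. The positions of the reads are not known from gene counts. All 10 genes are protein-coding in GENCODE vM21 (GRCm38), and none overlaps another annotated gene on either strand. Tlr1 (5:64924679-64933563) and Tlr6 (5:64952031-64960097) lie 18467 bases apart on the minus strand, and Tlr8 (X:167242696-167264329) and Tlr7 (X:167304929-167330558) lie 40599 bases apart on the minus strand. Tlr12 (4:128615443-128618619, minus strand) has 1 exon, and 4 of the 10 genes have their whole coding sequence in 1 exon. An AATAAA or ATTAAA poly(A) signal stood in the last 50 bases of the longest coding transcript of 5 members, Tlr1, Tlr4, Tlr6, Tlr7 and Tlr13. Over 21877 protein-coding genes, 72.2% had one. The last 30 bases of 4 transcripts are printed 5′ to 3′. They are the annotated ends of the best-covered receptors, Tlr12 and Tlr1, and of the sparsest, Tlr6 and Tlr9. Capitals mark the signal.
Tlr12 (chr4:128615443-128615472, minus strand): atcctcagtaaacttgctaaattcatgaaa
Tlr1 (chr5:64924679-64924708, minus strand): tttctAATAAAaattagtgggatactatat
Tlr6 (chr5:64952031-64952060, minus strand): aaaaAATAAAtctccattgatgttacaaca
Tlr9 (chr9:106226854-106226883, plus strand): cccccctttgtctgtctctgtatccctccc
Neither Tlr12, the member with the highest mean level, nor Tlr9, with the lowest, had a signal at its annotated end. The part of the signal in the levels was not tested. Tlr1 and Tlr6 were the only pair of members to share stretches of 31 bases: 20.1% of those of the Tlr1 transcript and 16.7% of those of Tlr6 occurred in the other gene. In the last 500 bases these shares were 6.38% for Tlr1 and 0.873% for Tlr6. Reads of that pair can therefore be split between them, depending on how the authors counted.

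Tlr12, which pairs with TLR11 to sense protozoan profilin, had the highest mean level of the receptors, though not beyond the spread of its difference from Tlr1. Levels are given as CPM, counts per 1000000 reads after TMM scaling of library sizes, and are not divided by length because a 3' library reads only the end of a transcript. Over all 12 libraries Tlr12 stood at 54.0 ± 13.7 CPM (SD, n = 12) and was the highest member in 10 libraries. Tlr1 followed with 38.8 ± 8.25 CPM and was the highest in the other 2 libraries. Below them came Tlr11 with 27.8 ± 8.56, Tlr2 with 23.5 ± 7.68, Tlr13 with 18.03 ± 3.85, Tlr7 with 14.8 ± 5.23 and Tlr4 with 11.8 ± 6.29 CPM. Tlr8 had 3.73 ± 2.50, Tlr6 3.02 ± 2.13 and Tlr9 0.66 ± 0.77 CPM. In this order, neighbours differed by more than the SD of their difference between libraries at 2 places, between Tlr4 and Tlr8 (10 of 12 libraries) and between Tlr6 and Tlr9 (11 of 12 libraries). The other 7 neighbouring pairs did not differ beyond that spread.

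**Figure D1:**
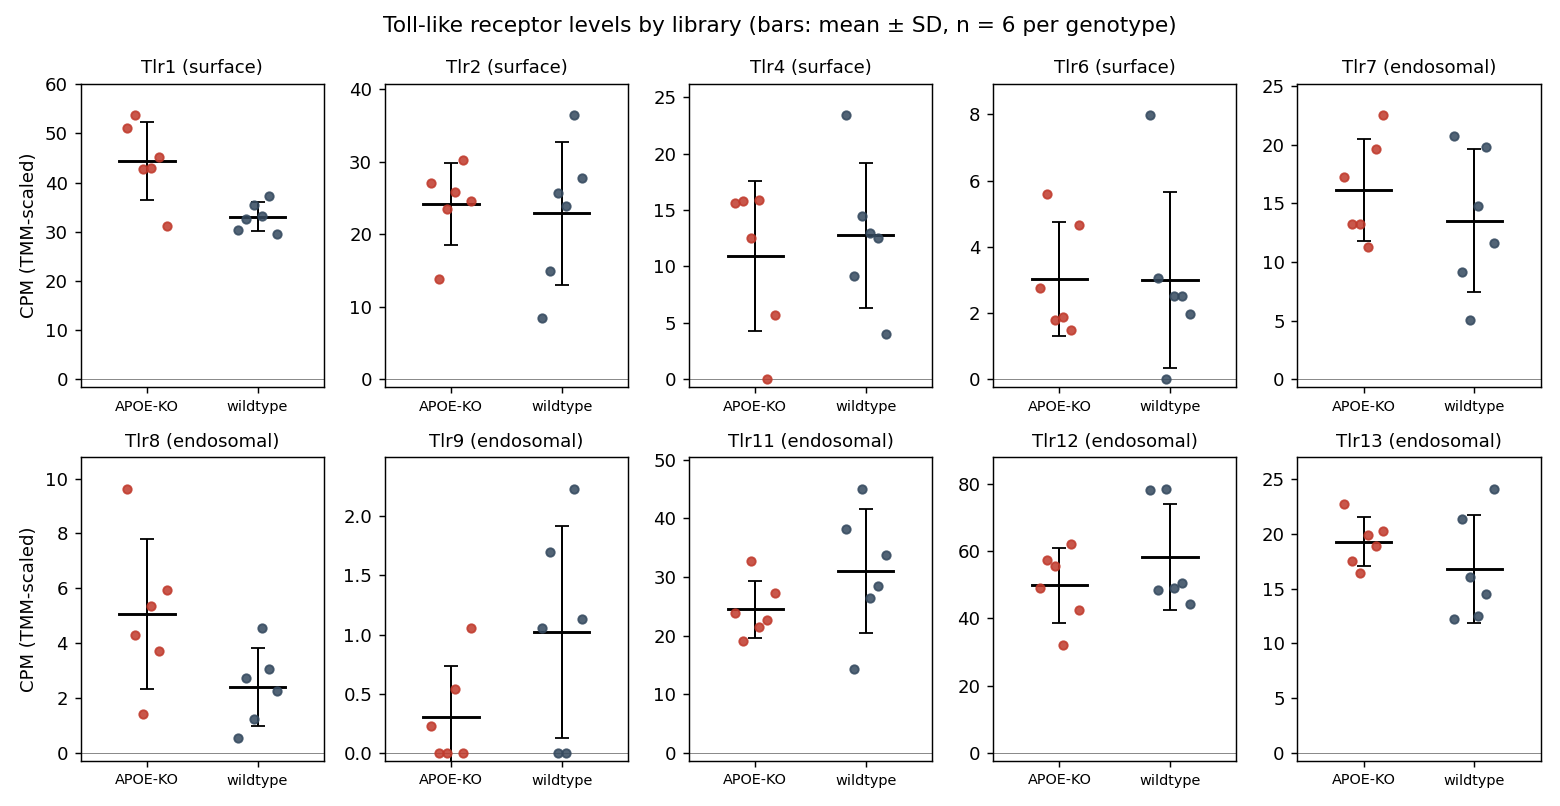
CPM of each receptor in every library, APOE-KO left of wildtype, with the mean and SD of 6 libraries. The genotypes overlap for all 10 genes, with Tlr1 closest to a separation: 5 of 6 APOE-KO libraries lie above the highest wildtype library.

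The genotype labels were checked on Apoe, which had 13 to 30 reads in APOE-KO libraries and 838 to 2919 reads in wildtype libraries. Totals ran from 3175135 to 4497466 counts in APOE-KO libraries and from 2381477 to 4898360 counts in wildtype libraries. The 45S ribosomal RNA gene Rn45s took 11.3% to 21.6% of counts in APOE-KO libraries and 2.71% to 32.2% in wildtype libraries. APOE-KO library 5, wildtype library 1 and wildtype library 3 lay farthest out on the leading 3 principal components of the 500 most variable genes, each on another one. Of 10714 tested genes, 236, 213 and 105 had no read in those 3 libraries, against 6 to 88 in the other APOE-KO libraries and 2 to 28 in the other wildtype libraries. CD11c itself, the bead target (Itgax), had 298 ± 36.9 CPM in APOE-KO and 278 ± 54.0 CPM in wildtype libraries (SD, n = 6 each).

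No receptor changed detectably between the genotypes. Of the 10 members, 9 had enough reads to be tested, and 0 of those 9 passed. The threshold was 0.05 on the p of the quasi-likelihood test of edgeR, adjusted by Benjamini-Hochberg over all 10714 tested genes. In the same test 160 genes passed, or 1.49% of those tested, with 116 higher and 44 lower in APOE-KO. With library totals alone in place of TMM scaling, 53 were higher and 35 lower. At an unadjusted p under 0.05, 1 member passed (Tlr1), as did 12.1% of all tested genes. DESeq2 and limma-voom also called 0 members adjusted and 1 unadjusted; over all genes DESeq2 called 2.25% adjusted and 9.58% unadjusted, and limma-voom 1.56% and 13.1%. In no member did the groups fail to overlap, as they did in 1.77% of tested genes. The log2 fold change was positive in 6 of the 9 tested members and in 47.2% of all tested genes. Its median was 0.10 over those members and -0.02 over all tested genes. As these are mixed cells, fewer cells of a type and less RNA per cell cannot be told apart in any value given here.

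**Figure D2:**
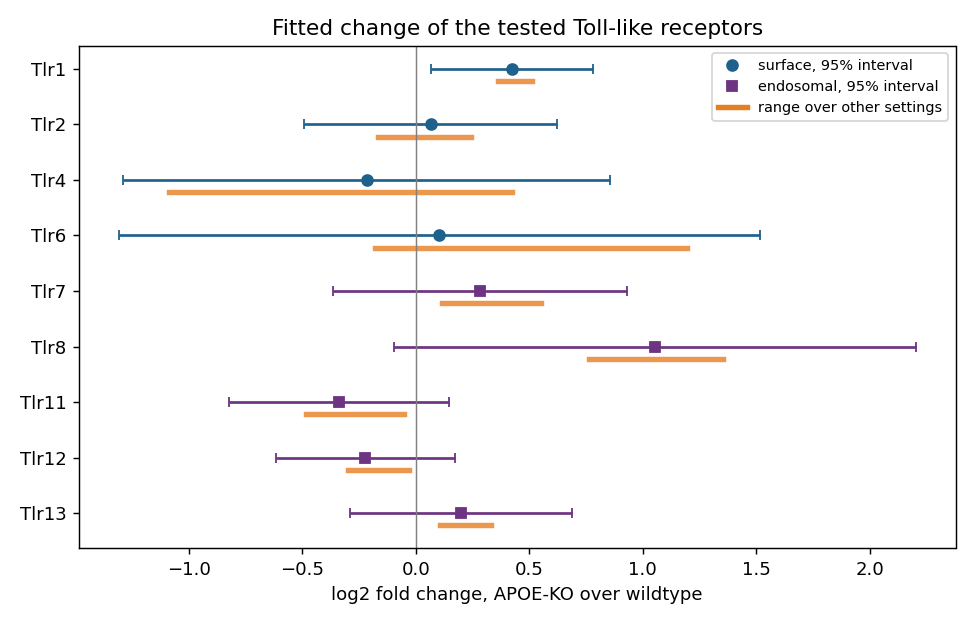
Log2 fold change of each tested receptor, APOE-KO over wildtype, with its 95% interval, and under it the range of the value over the other processing settings and left-out libraries. The interval of Tlr1 alone excludes 0 before adjustment over all genes, and those of Tlr4, Tlr6 and Tlr8 are widest.

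Among surface receptors, Tlr1 had the smallest p. TLR1 pairs with TLR2 to bind triacylated bacterial lipopeptides. Its level had a minimum of 31.2, a median of 44.1 and a maximum of 53.7 CPM in APOE-KO libraries, against 29.5, 32.9 and 37.3 CPM in wildtype libraries. All APOE-KO libraries but library 6 lay above every wildtype library. The fitted fold was 1.34, with a 95% interval of 1.05 to 1.72 (log2 fold change 0.42 ± 0.17 SE, adjusted p = 0.305). Over the 22 alternative fits its log2 fold change stayed between 0.36 and 0.51, with adjusted p from 0.225 to 0.548.

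Tlr2, the shared partner of TLR1 and TLR6, had 13.8, 25.2 and 30.3 CPM (minimum, median and maximum) in APOE-KO libraries and 8.50, 24.8 and 36.4 CPM in wildtype libraries. All APOE-KO values lay inside the wildtype range. Its log2 fold change was 0.06, with an interval of -0.49 to 0.62 (adjusted p = 0.964). The sign turned with library totals alone (-0.002) and without APOE-KO library 5 (-0.010), wildtype library 1 (-0.088) or wildtype library 2 (-0.029).

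Tlr6, which pairs with TLR2 for diacylated lipopeptides, was sparse, with 69 reads over the APOE-KO libraries and 51 over the wildtype libraries. It had 1.49, 2.31 and 5.60 CPM in APOE-KO libraries and 0, 2.50 and 7.97 CPM in wildtype libraries, which again enclosed the APOE-KO values. The library at 0 was wildtype library 3, where the mean of the other wildtype libraries, 3.60 CPM, would give 20.6 reads. Its log2 fold change was 0.10 with an interval of -1.31 to 1.51 (adjusted p = 0.981), which as a fold runs from 0.404 to 2.86. The sign turned when wildtype library 3 (-0.182), APOE-KO library 2 (-0.154) or APOE-KO library 6 (-0.075) was left out, and limma-voom gave 1.194.

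Tlr4, the lipopolysaccharide receptor, had 0, 14.0 and 15.9 CPM in APOE-KO libraries and 3.97, 12.7 and 23.4 CPM in wildtype libraries. The 0 came from APOE-KO library 5, where the mean of the other APOE-KO libraries, 13.1 CPM, would give 52.6 reads and where 3 reads stand for 0.746 CPM. That library was the only one of the APOE-KO group outside the wildtype range. The log2 fold change was -0.22 with an interval of -1.29 to 0.86 (adjusted p = 0.923), and 0.053 without APOE-KO library 5. It was 0.014 without wildtype library 1, and 0.425 without wildtype libraries 1 and 3 and APOE-KO library 5. With limma-voom it was -1.088.

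Endosomal receptors likewise held no call, and 3 of the 5 tested had a positive log2 fold change. TLR7 and TLR8 sense single-stranded RNA. Tlr7 had 11.3, 15.2 and 22.5 CPM in APOE-KO libraries and 5.07, 13.2 and 20.7 CPM in wildtype libraries, and 1 APOE-KO library lay above the wildtype range. Its log2 fold change of 0.28 had an interval of -0.37 to 0.93 (adjusted p = 0.803). Tlr8 had the largest fitted difference of the 9 tested members on few reads, 122 over the APOE-KO libraries and 55 over the wildtype libraries. Its level was 1.42, 4.83 and 9.62 CPM in APOE-KO libraries and 0.531, 2.49 and 4.55 CPM in wildtype libraries. Of the APOE-KO libraries, 3 of 6 lay above every wildtype library, and the rest overlapped. The log2 fold change was 1.05 ± 0.56 (SE), with an interval of -0.10 to 2.20 and an adjusted p of 0.461. Tlr13, the mouse receptor for bacterial ribosomal RNA, had 16.4, 19.4 and 22.7 CPM in APOE-KO libraries and 12.2, 15.3 and 24.1 CPM in wildtype libraries (log2 fold change 0.20, interval -0.29 to 0.69, adjusted p = 0.819). All APOE-KO values of Tlr13 lay inside the wildtype range.

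The profilin receptors had negative log2 fold changes. Tlr11 had 19.1, 23.2 and 32.7 CPM in APOE-KO libraries and 14.3, 31.1 and 45.0 CPM in wildtype libraries (log2 fold change -0.34, interval -0.83 to 0.14, adjusted p = 0.617). Its APOE-KO values lay inside the wildtype range. Tlr12 had 32.0, 52.3 and 62.2 CPM in APOE-KO libraries and 44.2, 49.9 and 78.4 CPM in wildtype libraries (log2 fold change -0.22, interval -0.62 to 0.17, adjusted p = 0.713). Below every wildtype library lay 2 of the 6 APOE-KO libraries, and the others overlapped. Wildtype libraries 1 and 3 held the highest levels of both genes, with 78.1 and 78.4 CPM of Tlr12, against at most 50.6 CPM in the other wildtype libraries. Without those libraries and APOE-KO library 5, the log2 fold change was -0.052 for Tlr11 and -0.030 for Tlr12.

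Tlr9, the receptor for unmethylated CpG DNA, was the 1 member below the filter on low counts. It had 8 reads over the 6 APOE-KO libraries and 19 over the 6 wildtype libraries, and 5 libraries had none (APOE-KO libraries 2, 3 and 5 and wildtype libraries 3 and 4). Neither the labels nor the processing notes name the gene annotation behind the counts, so reads that end beyond the annotated transcript may be missing from these counts. A count of 0 allows up to 0.525 to 1.07 CPM in those 5 libraries, from the limit of 3 counts, which covers counting error only. Fitted without the filter, its log2 fold change was -1.55 ± 1.402 (SE, adjusted p = 0.651). Genes of cell types known to carry TLR9 were also read. Among genes of the B cell receptor, Cd79a had 8.92 ± 2.89 CPM in APOE-KO and 7.32 ± 3.74 CPM in wildtype, and Cd79b had 132 ± 16.0 CPM in APOE-KO and 147 ± 30.1 CPM in wildtype (SD, n = 6 each). Of plasmacytoid genes, Bst2 had 372 ± 54.2 CPM in APOE-KO and 404 ± 134 CPM in wildtype, and the lectin gene Siglech 136 ± 25.2 CPM in APOE-KO and 302 ± 187 CPM in wildtype (SD, n = 6 each). Pax5 of B cells and Lag3 of plasmacytoid cells had too few reads to be tested. The part of these cells and of the annotation in the Tlr9 counts was not tested.

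Grouped by compartment, the surface receptors summed to 82.6 ± 10.5 CPM in APOE-KO and 71.7 ± 10.2 CPM in wildtype libraries (SD, n = 6 each). The endosomal receptors summed to 115 ± 13.1 CPM in APOE-KO and 123 ± 21.1 CPM in wildtype libraries. Endosomal receptors thus made up 58.2% ± 4.88 of the reads of the 10 members in APOE-KO and 63.0% ± 4.13 in wildtype libraries, a share that scaling of libraries cannot change. Shares ran from 51.1% (95% exact binomial interval 47.2 to 55.0, APOE-KO library 4) to 64.4% (61.2 to 67.6, APOE-KO library 6) in APOE-KO. In wildtype they ran from 57.2% (53.5 to 60.8, library 5) to 68.3% (63.6 to 72.7, library 1), and the genotypes overlapped. Those intervals cover counting error only. Within the endosomal group, Tlr11 and Tlr12 together held 37.5% ± 5.16 of all receptor reads in APOE-KO and 45.3% ± 7.19 in wildtype. Wildtype libraries 1 and 3 had 52.6% and 55.7%. The other wildtype libraries had 38.1% to 43.2%, inside the APOE-KO range of 30.2% to 44.2%. Within the surface group, Tlr1 held 53.7% ± 5.1 of surface reads in APOE-KO and 46.5% ± 4.4 in wildtype. Its ranges overlapped, at 47.1% to 60.4% in APOE-KO and 42% to 54.5% in wildtype. These sums were chosen with the members' values known and carry no test.

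**Figure D3:**
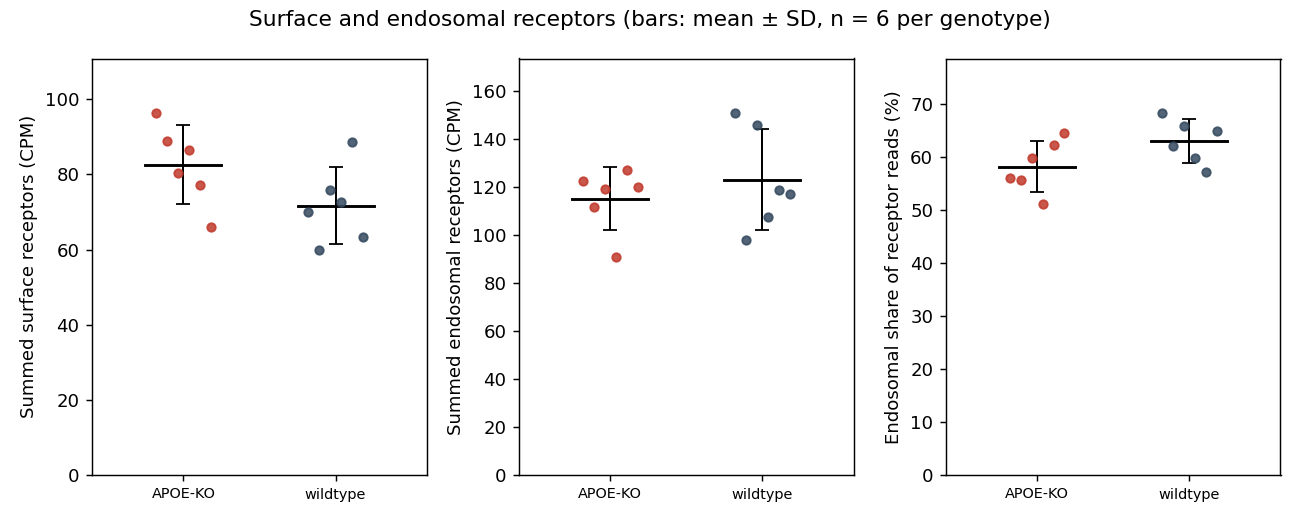
Summed CPM of surface and of endosomal receptors and the endosomal share of receptor reads, by library, APOE-KO left of wildtype, with the mean and SD of 6 libraries. Endosomal shares span 51.1% to 64.4% in APOE-KO and 57.2% to 68.3% in wildtype, and the genotypes overlap in all 3 panels.

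Markers of the cell types that carry these receptors were read beside them. Of 13 tested plasmacytoid dendritic cell markers 4 fell in APOE-KO, Siglech, Klk1, Runx2 and Cox6a2, beside 0.411% of all tested genes. The other 9 did not pass, and Bst2 and Mzb1 had the largest p of them (adjusted p = 0.848 and 0.691). A positive log2 fold change was found in 0 of the 13, beside 47.2% of all tested genes, and the median was -0.61. At an unadjusted p under 0.05 in edgeR's test there were 9, beside 12.1% of all tested genes. DESeq2 called 7 of these markers and limma-voom 3. Their summed level over 14 genes overlapped, at 1249 to 1727 CPM in APOE-KO and 1677 to 3390 CPM in wildtype libraries. The highest sum was in wildtype library 1, with Tlr7 at 20.7, Tlr11 at 38.2 and Tlr12 at 78.1 CPM. Wildtype library 3, with a sum of 1978 CPM, held the highest Tlr11 (45.0 CPM) and Tlr12 (78.4 CPM) and the lowest Tlr7 (5.07 CPM). The highest Tlr7 (22.5 CPM) was in APOE-KO library 6, with a sum of 1479 CPM. Of conventional type 1 dendritic cell markers 0 of 9 passed in edgeR's test, with a sum of 1190 to 1444 CPM in APOE-KO and 1296 to 1661 CPM in wildtype. Xcr1, a chemokine receptor that defines these cells, had 148 ± 25.3 CPM in APOE-KO and 183 ± 26.3 CPM in wildtype (SD, n = 6 each), and Clec9a, their lectin for dead cells, 61.3 ± 12.1 CPM in APOE-KO and 73.8 ± 6.88 CPM in wildtype. Of conventional type 2 markers Sirpa rose and Clec10a fell among 8 tested, beside 1.08% and 0.411% of all tested genes (sum 635 to 769 CPM in APOE-KO, 558 to 728 CPM in wildtype). Markers of mature dendritic cells rose in 6 of 9 tested genes, beside 1.08% of all tested genes. The 6 were Anxa3, Ccr7, Tmem123, Ccl22, Socs2 and Cacnb3, and DESeq2 and limma-voom each called 7 of the list. Mature markers summed to 5051 to 7874 CPM in APOE-KO and 3486 to 5421 CPM in wildtype. The part of these markers in the receptor values was not tested.

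B cell markers summed to 590 to 759 CPM in APOE-KO and 704 to 961 CPM in wildtype. Fcer2a, an IgE receptor, was the 1 of 8 tested genes that fell in edgeR's test (adjusted p = 0.0470), beside 0.411% of all tested genes. DESeq2 also called 1 and limma-voom 0. Macrophages and monocytes are known carriers of surface receptors, and their marker sums overlapped. Macrophage markers summed to 1164 to 1476 CPM in APOE-KO and 1249 to 1582 CPM in wildtype. Of 12 tested, 2 rose (Cd5l and C1qb) and 4 fell (Marco, Timd4, Mrc1 and Folr2), beside 1.08% and 0.411% of all tested genes. Such opposite changes can offset each other in the sum, with log2 fold changes of 2.34 for Cd5l and -1.54 for Marco. DESeq2 called 6 macrophage markers and limma-voom 5. Monocyte markers summed to 664 to 880 CPM in APOE-KO and 749 to 1018 CPM in wildtype (0 of 6 passed in edgeR's test). Neutrophil markers were scarce, at 22.04 to 76.6 CPM in APOE-KO and 19.2 to 35.7 CPM in wildtype (0 of 5 passed). T cell markers summed to 279 to 410 CPM in APOE-KO and 283 to 331 CPM in wildtype (0 of 7), and NK cell markers to 19.2 to 137 CPM in APOE-KO and 50.4 to 215 CPM in wildtype (0 of 4). Epithelial markers summed to 8.69 to 88.1 CPM in APOE-KO and 73.1 to 123 CPM in wildtype. Of these, 1 of 5 tested fell, the cadherin Cdh1, beside 0.411% of all tested genes (DESeq2 called 1 and limma-voom 3). Endothelial and stromal markers summed to 113 to 157 CPM in APOE-KO and 136 to 237 CPM in wildtype (0 of 6). Markers without a read in any library were Klra8 (NK cell) and Ccl21a (stromal). General dendritic markers, Itgax and Flt3 among them, summed to 5724 to 7100 CPM in APOE-KO and 5245 to 7048 CPM in wildtype (0 of 7). In the 7 marker lists with 0 calls by edgeR, 10 of 44 tested genes had an unadjusted p under 0.05, beside 12.1% of all tested genes. DESeq2 called 1 gene of these lists and limma-voom 0.

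**Figure D4:**
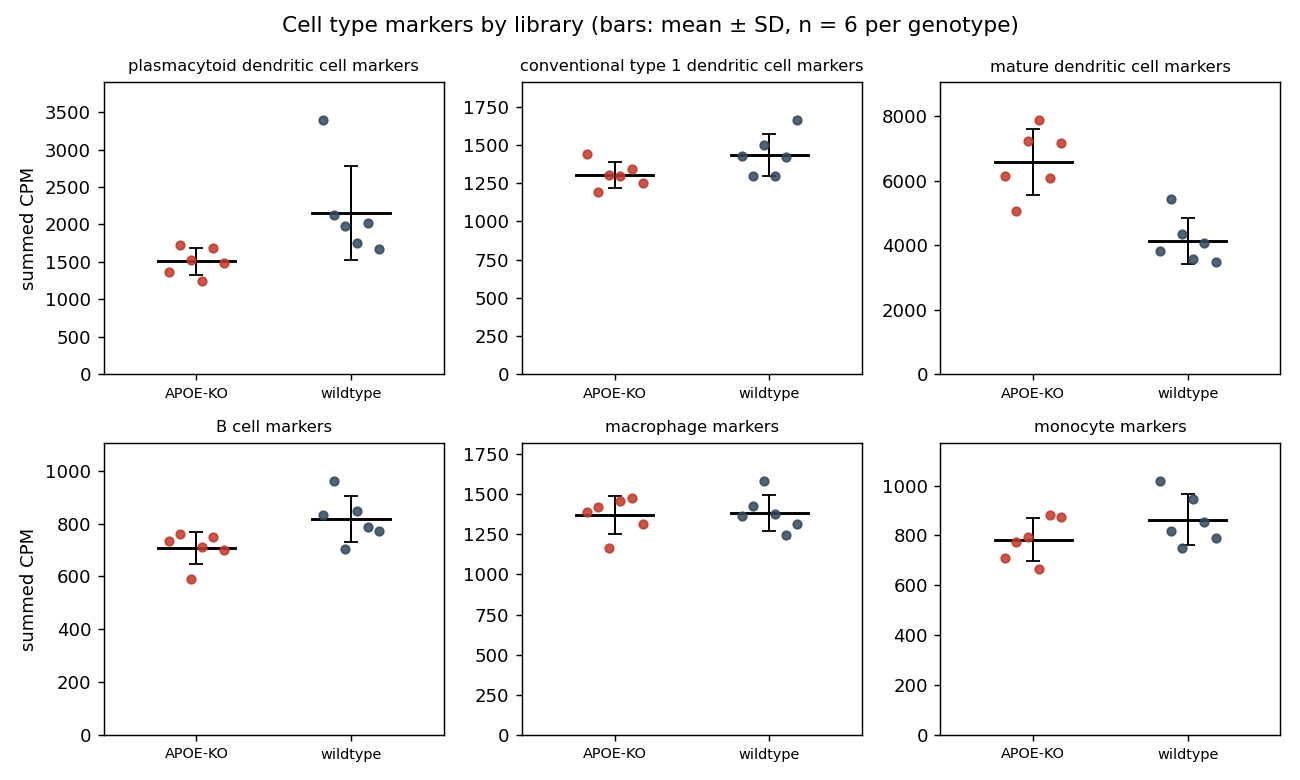
Summed CPM of marker genes for 6 cell types, by library, APOE-KO left of wildtype, with the mean and SD of 6 libraries. Plasmacytoid markers reach 3390 CPM in wildtype library 1, and mature dendritic cell markers sit at 5051 to 7874 CPM in APOE-KO against 3486 to 5421 CPM in wildtype.

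Genes around the receptors were read from 6 lists with 99 genes in all, of which 90 were tested, 5 rose and 0 fell in edgeR's test. DESeq2 called 10, with 8 higher and 2 lower (Jun and Il10), and limma-voom 7, all higher. The background was 1.08% of tested genes higher and 0.411% lower. The lists were chosen with earlier results of these data known, so these counts are no test against that background. Of the 5, 3 were among the 6 proteases listed for cutting endosomal receptors into their working form, a list with a median log2 fold change of 0.52. Lgmn, asparagine endopeptidase, had 51.4, 70.1 and 124 CPM in APOE-KO libraries and 26.0, 36.4 and 40.8 CPM in wildtype libraries (log2 fold change 1.14 ± 0.20 SE, adjusted p = 0.00236). Ctsb, cathepsin B, had 669, 719 and 852 CPM in APOE-KO libraries and 408, 485 and 564 CPM in wildtype libraries (log2 fold change 0.60 ± 0.11 SE, adjusted p = 0.00444). Ctsk, cathepsin K, was nearly absent from wildtype, with 185 reads over the APOE-KO libraries and 7 over the wildtype libraries (log2 fold change 4.41 ± 0.77 SE, adjusted p = 0.00223). For Lgmn, Ctsb, Ctsk and also Ctss, cathepsin S, every APOE-KO library lay above every wildtype library. The groups failed to overlap, in either direction, in 1.77% of all tested genes. Ctss averaged 1719 ± 195 CPM in APOE-KO and 1267 ± 187 CPM in wildtype (SD, n = 6 each) and did not pass in edgeR's test (log2 fold change 0.44, adjusted p = 0.0614), but passed, as higher, with DESeq2, limma-voom and edgeR's robust fit. Also short of the threshold in edgeR's test was Ctsl, cathepsin L, with 111 ± 10.7 CPM in APOE-KO and 152 ± 42.5 CPM in wildtype (adjusted p = 0.177). Cathepsins also serve general protein breakdown in lysosomes.

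Chaperones and co-receptors did not change detectably, with 0 of 15 tested genes past the threshold in edgeR's test and a median log2 fold change of -0.11. At an unadjusted p under 0.05 there were also 0, and DESeq2 and limma-voom called 0. Unc93b1, which carries endosomal receptors out of the endoplasmic reticulum, had 264 ± 47.9 CPM in APOE-KO and 245 ± 23.8 CPM in wildtype (SD, n = 6 each; adjusted p = 0.818). Ly96, the MD-2 subunit of the TLR4 complex, had 9.47 ± 1.20 CPM in APOE-KO and 5.70 ± 2.34 CPM in wildtype (adjusted p = 0.445), and its companion Cd14 20.4 ± 7.00 CPM in APOE-KO and 20.9 ± 4.69 CPM in wildtype. Ap3b1, an adaptor of endosomal sorting, had an adjusted p of 0.633. Cd180 and Ly86, which form a receptor complex related to that of TLR4 on B cells, had log2 fold changes of -0.37 and -0.28 (adjusted p = 0.650 and 0.699).

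Adaptors and kinases held 0 calls among 22 tested genes (median 0.05). Myd88 had 46.0 ± 8.36 CPM in APOE-KO and 49.6 ± 14.2 CPM in wildtype (SD, n = 6 each; adjusted p = 0.874). The smallest p values of the list were those of Traf6, the ubiquitin ligase after MYD88, and Ticam1, the TRIF adaptor of TLR4. Traf6 had 47.2 ± 8.34 CPM in APOE-KO and 34.0 ± 5.76 CPM in wildtype (log2 fold change 0.47, adjusted p = 0.230). Its groups did not overlap, as in 1.77% of all tested genes. Ticam1 had 19.3 ± 2.30 CPM in APOE-KO and 12.9 ± 4.44 CPM in wildtype (log2 fold change 0.57, adjusted p = 0.371). Negative regulators likewise held 0 calls among 17 tested genes (median 0.03). Trafd1, whose groups did not overlap either, had an adjusted p of 0.281 and Tnip3 of 0.332. In each of these 2 lists 2 genes had an unadjusted p under 0.05, as did 12.1% of all tested genes, and DESeq2 and limma-voom called 0.

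Of the transcription factors 1 of 12 rose. At an unadjusted p under 0.05 in edgeR's test 5 of them passed, in both directions, beside 12.1% of all tested genes. DESeq2 called 2, Irf7 higher and Jun lower, and limma-voom 1. Jun had 315 ± 30.5 CPM in APOE-KO and 437 ± 78.8 CPM in wildtype (SD, n = 6 each, adjusted p = 0.0651 in edgeR's test), and its groups did not overlap. Irf7, the interferon regulatory factor that plasmacytoid dendritic cells use after TLR7 and TLR9, had 85.8 ± 15.3 CPM in APOE-KO and 50.6 ± 6.91 CPM in wildtype (SD, n = 6 each; log2 fold change 0.76 ± 0.16 SE, adjusted p = 0.00989), and the groups overlapped by a narrow margin (lowest APOE-KO 59.0 CPM, highest wildtype 59.3 CPM). Of the target genes 1 of 18 tested rose, Marcksl1, a MARCKS-related protein that is also a gene of dendritic cell maturation, with 287 ± 45.1 CPM in APOE-KO and 178 ± 30.4 CPM in wildtype (log2 fold change 0.69 ± 0.14 SE, adjusted p = 0.00855). The median of that list was 0.35, and 14 of 18 tested members were positive, beside 47.2% of all tested genes. At an unadjusted p under 0.05 there were 11, beside 12.1% of all tested genes. Lower among them were only the chemokine gene Ccl4, the regulator Nfkbiz and Il10. The others, Marcksl1, Ccl5, Il12b, Cxcl10, Tnf, Icam1, Cd40 and Cxcl2, were higher. DESeq2 called 4 of the list (Marcksl1, Ccl5 and Il12b higher, Il10 lower) and limma-voom 2 (Marcksl1 and Ccl5). Il10, which encodes the cytokine interleukin 10, had 1.88 ± 1.82 CPM in APOE-KO and 6.88 ± 2.06 CPM in wildtype (SD, n = 6 each; edgeR log2 fold change -1.88, adjusted p = 0.134). Ifnb1, which encodes interferon beta, had no read in any library. With library totals alone in place of TMM scaling, Ctsb, Irf7 and Marcksl1 did not pass (adjusted p = 0.104, 0.0644 and 0.0523). Without wildtype library 3, 8 list members passed (Ccl5, Ctss and Relb were added), and without wildtype libraries 1 and 3 and APOE-KO library 5, also 8, of which Jun and Ccl4 fell.

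**Figure D5:**
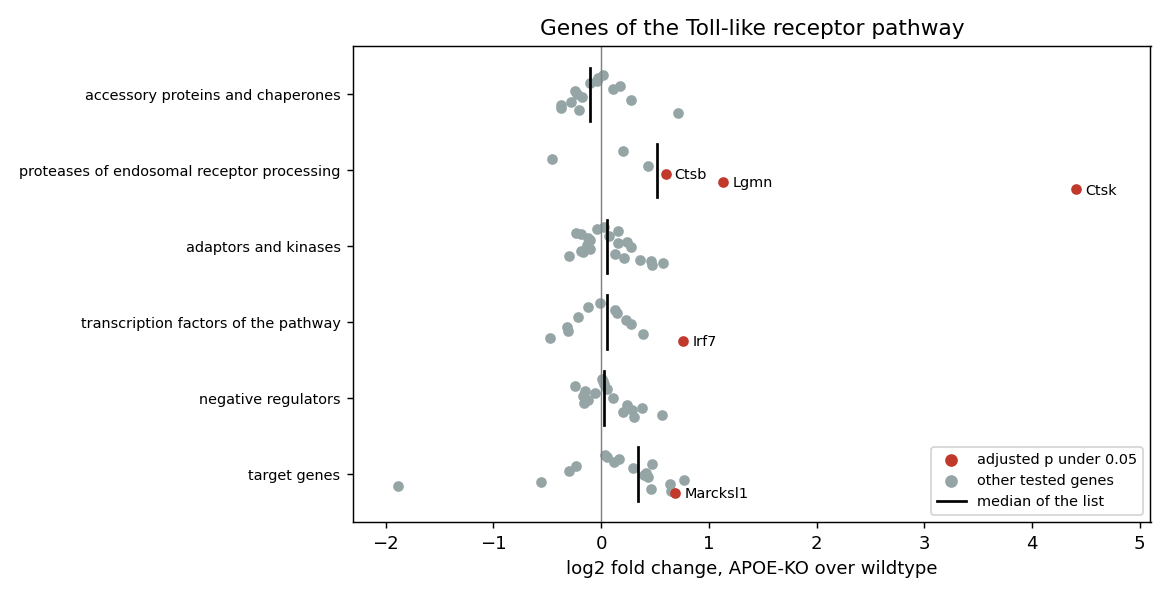
Log2 fold change, APOE-KO over wildtype, of the tested genes in 6 lists of the receptor pathway, with the median of each list as a bar and genes past an adjusted p of 0.05 in red. The 5 genes in red are Ctsk, Lgmn, Ctsb, Irf7 and Marcksl1, all on the higher side.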

How the data were processed

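Libraries were made from RNA with Lexogen's 3' FWD kit, per the labels' protocols. The authors deposited raw whole-number counts for each gene symbol. The submitters' processing notes name STAR 2.7.8a, featureCounts 1.5.1, R 4.1.0, DESeq2 1.4 and build mm10. Not stated are the annotation, the strand setting, the treatment of reads with several matches and the use of molecular identifiers.

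They were tested with edgeR 4.0.16 in R 4.3.3 (filterByExpr with minimum count 10, TMM, glmQLFit and glmQLFTest on genotype, 10714 genes). Fold changes are APOE-KO over wildtype. The SE is the log2 fold change over the square root of F, and 95% intervals use the t quantile of the test's degrees of freedom. At these depths 3 counts stand for 0.525 to 1.59 CPM. Positions, transcripts and 3' ends came from GENCODE vM21 (GRCm38, the assembly of mm10). The test was run on simulated counts first. Alternatives used DESeq2 1.42.0, limma 3.58.1, other scalings and filters, a robust fit, a replicate block and left-out libraries.

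The members and lists were chosen with earlier results of these data known. Named genes are all members, Apoe, Rn45s, Itgax, passing list members or otherwise the 2 with the smallest p, and defining markers, of which those of the plasmacytoid, type 1 dendritic and B cell lists are printed with values. Genes named outside this rule, chosen after their values were seen, are Unc93b1, Cd14, Cd180, Ly86, Myd88, Ctss, Ctsl, Ifnb1, Klra8, Ccl21a, Ccl5, Relb, Jun, Ccl4, Il10, Il12b, Nfkbiz, Cxcl10, Tnf, Icam1, Cd40, Cxcl2, Mzb1, Pax5 and Lag3, and the marker list members past the threshold. Every pair of libraries within a group differed by more than sampling noise (lowest chi-square 6.84 per degree of freedom, 30 pairs). No column was left unused.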

Additional observations from a re-analysis of the deposited data

How the results depend on the processing

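Toll-like receptors past the threshold numbered 0 in all 10 other settings and in the 12 fits without 1 library. Tlr1, Tlr7, Tlr8 and Tlr13 stayed positive and Tlr11 and Tlr12 negative in all 22. Tlr2 turned to -0.002 with library totals alone and to -0.165 without wildtype libraries 1 and 3 and APOE-KO library 5, where Tlr4 turned to 0.425. Without 1 library, Tlr2 ran from -0.088 to 0.241, Tlr4 from -0.403 to 0.053 and Tlr6 from -0.182 to 0.62. Limma-voom gave -1.088 for Tlr4 and 1.194 for Tlr6, against -0.217 and 0.103 with the settings reported. The cause was not tested. Tlr6 did not pass the filter with Rn45s removed or with over 3 CPM asked of 6 libraries. All genes past the threshold were 160 (116 higher, 44 lower) with the settings reported, 88 (53 higher) with library totals, 272 (182 and 90) with DESeq2, and 68 lower without a filter. Without 1 library they numbered 99 to 230 (72 to 166 higher, 27 to 64 lower); 99 was without APOE-KO library 3, 27 lower without that library or wildtype library 5, and 29 lower without APOE-KO library 6. Pathway list members past the threshold, 5 as reported, were 2 with library totals, 10 with DESeq2 (2 of them lower), 8 without the 3 libraries that stood apart, and 5 to 8 without 1 library. The endosomal share was 56.9% to 59.6% in APOE-KO and 61.9% to 64.1% in wildtype without 1 library. With a replicate block, 100 genes passed (70 higher) and the member and list counts did not change. The labels do not say that numbers pair libraries, same-numbered libraries correlated at -0.077 to 0.018, and 0 of 6 APOE-KO libraries correlated best with their own number. Tlr6, Tlr8 and Tlr9 had 120, 177 and 27 reads in all, which limits the precision of their values. Whether reads beyond annotated ends went uncounted was not tested.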
